A study of Mus musculus with 26 samples.

Results

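Lipolysis, the release of fatty acids from stored triglyceride, and the proteins that coat the lipid droplet were followed here through 10 genes in mouse epididymal white adipose tissue. They are the lipases Lipe, Pnpla2 and Mgll, the lipase regulators Abhd5 and G0s2, the droplet coat proteins Plin1, Plin2 and Plin4, and the droplet fusion proteins Cidea and Cidec. They were chosen by name, as lipases, their regulators and droplet coat proteins, and all 10 were found by symbol among the 39017 genes of the count tables.

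RNA was sequenced from male C57BL/6J mice that were 9 to 10 weeks old when the diets began. The LFD group received a diet with 10% of calories from fat for 12 weeks, the HFD group a diet with 60% for 12 weeks, and the SW group was switched to the LFD for 3 weeks after 9 weeks on the HFD. Fat pads were digested with collagenase and separated into floating adipocytes and the pelleted stromal vascular cells (SVC). The labels list 3 libraries for each diet in each fraction. The columns that could be tied to a group were 3 for each diet in adipocytes and 1 LFD, 2 HFD and 3 SW in SVC, with 5781902 to 23725647 counts each. The labels hold 26 records for 18 libraries, with a paired-end and a single run for 8 of them. Those of adipocyte SW are all paired-end and every SVC SW library has both. The adipocyte LFD and HFD groups mix libraries with paired-end runs only and libraries with both. The SVC HFD group mixes libraries with single runs only and with both, so in the labels the layout differs between the diets compared. Which runs a column holds is not stated, and the part of the layout in the results was not tested. Libraries are numbered within each group in the order of the number in their column name, which is in no label, and those named without SVC are of adipocytes. The single SVC LFD library gives values with no spread, so no test was made with it.

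Triglyceride is broken down in steps. Pnpla2 encodes adipose triglyceride lipase, which takes off the first fatty acid, Lipe encodes hormone-sensitive lipase, which acts mainly on diacylglycerol, and Mgll encodes the lipase of monoacylglycerol. In resting fat cells perilipins on the droplet surface hold the co-activator Abhd5 away from Pnpla2, and catecholamines free it through protein kinase A.

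The SVC HFD libraries stood apart from each other. Mitochondrial genes took 6.34% of the counts of SVC HFD library 1 and 33.5% of those of SVC HFD library 2, and hemoglobin genes took 0.287% and 3.09%. The same pair differed by 384 times the counting variance per gene, while the other pairs of a group differed by 12.9 to 92.2 times. The highest of the latter were adipocyte SW library 1 against SW libraries 2 and 3, at 92.2 and 82.1 times. SW libraries 2 and 3 differed from each other by 12.9 times. The fold changes of called members in comparisons that use the SVC HFD libraries are therefore given with and without each of them.

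Levels below are in CPM, the counts of a gene per 1000000 counts of its library, scaled by trimmed mean factors over all 15 libraries. The test is the quasi-likelihood test of edgeR, and its p-values were adjusted over all genes tested by the method of Benjamini and Hochberg, with a threshold of 0.05. Fold changes in log2 come from a fit within each fraction for diet, and from a fit of all 15 libraries for fraction.

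In adipocytes HFD was set against LFD to ask how the genes stand in obese mice. Plin2 rose, while Lipe, Pnpla2, Mgll, G0s2, Cidea and Cidec fell. Of the 10 members 1 was higher and 6 were lower, against a background of 26.5% higher and 25% lower among the 14461 genes tested. The remaining 3, Abhd5, Plin1 and Plin4, were not called. The median log2 fold change was -0.79 over the members and -0.03 over all genes tested. With 1 library left out, 4 members passed without LFD library 3 and 3 without HFD library 3, while the genes called in all went from 7448 to 6077 and 5757. In these bulk samples fewer cells of a type and less RNA per cell cannot be told apart.

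The lipase Lipe stood at 972, 1023 and 1294 CPM in LFD libraries 1, 2 and 3, and at 350, 653 and 457 CPM in HFD libraries 1, 2 and 3. In SW libraries 1, 2 and 3 it stood at 680, 883 and 1002 CPM. Every HFD library was below every LFD and every SW library, and SW overlapped LFD. The log2 fold change of Lipe in HFD against LFD was -1.19 ± 0.25 (SE, n = 3 against 3, edgeR adjusted p = 0.00279).

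The first lipase, Pnpla2, was at 996, 969 and 1511 CPM in LFD, at 401.7, 799 and 641 CPM in HFD, and at 715, 1108 and 1170 CPM in SW, in the same library order. HFD lay below LFD in all libraries, and SW library 1 lay among the HFD values. In HFD against LFD the log2 fold change was -0.93 ± 0.29 (SE, edgeR adjusted p = 0.0216). Without LFD library 3 or HFD library 1 or 3 it was -0.71, -0.72 and -0.97, and not called (edgeR adjusted p of 0.0881, 0.0684 and 0.0549).

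The monoacylglycerol lipase Mgll was at 1035, 1039 and 1163 CPM in LFD, at 559, 842 and 689 CPM in HFD, and at 610, 727 and 866 CPM in SW. All HFD and all SW libraries lay below all LFD libraries, and HFD and SW overlapped. Its log2 fold change in HFD against LFD was -0.65 ± 0.19 (SE, edgeR adjusted p = 0.0173), and it was -0.60, -0.52 and -0.64 with adjusted p of 0.0541, 0.0609 and 0.0578 without LFD library 3 and HFD libraries 1 and 3.

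G0s2, the inhibitor of Pnpla2, was at 291, 286 and 483 CPM in LFD and at 85.8, 124 and 105 CPM in HFD. The SW libraries held 259, 183 and 191 CPM, between the HFD and the LFD libraries without overlap with either. In HFD against LFD the log2 fold change was -1.77 ± 0.24 (SE, edgeR adjusted p = 0.000251). Its partner in control of Pnpla2, the co-activator Abhd5, was at 99 to 137 CPM in LFD, 84 to 143 CPM in HFD and 94.6 to 119 CPM in SW. The 3 ranges of Abhd5 overlapped, and the log2 fold change in HFD against LFD was -0.10 ± 0.19 (SE, edgeR adjusted p = 0.67).

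Plin2, a perilipin that coats droplets in many cell types beside fat cells, was at 553, 446 and 460 CPM in LFD libraries 1, 2 and 3. It was at 1614, 1838 and 1914 CPM in HFD libraries 1, 2 and 3, and at 1333, 1124 and 1123 CPM in SW libraries 1, 2 and 3. The 3 groups did not overlap, with LFD lowest and HFD highest. Plin2 had a log2 fold change in HFD against LFD of 1.86 ± 0.17 (SE, edgeR adjusted p = 2.84e-05).

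Plin1, the perilipin of the adipocyte droplet that gates hormone-driven lipolysis, was at 371, 347 and 486 CPM in LFD, at 191, 388 and 274 CPM in HFD, and at 207, 325 and 430 CPM in SW. Its 3 groups overlapped, and the log2 fold change in HFD against LFD was -0.52 ± 0.30 (SE, edgeR adjusted p = 0.172). Plin4, which coats small nascent droplets, was at 1272, 1189 and 1535 CPM in LFD, at 670, 1368 and 975 CPM in HFD, and at 905, 942 and 1151 CPM in SW. HFD library 2 lay within the LFD range of Plin4, and the log2 fold change was -0.43 ± 0.25 (SE, edgeR adjusted p = 0.17). Without HFD library 2 the difference was -0.69 and past the threshold (edgeR adjusted p = 0.0308). Plin4 passed under this 1 of 14 alternatives, over which the value ran from -0.69 to -0.22.

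Cidec, which lets droplets fuse and grow in white fat, was at 2526, 2459 and 2916 CPM in LFD, at 917, 1975 and 1282 CPM in HFD, and at 1530, 1855 and 2164 CPM in SW. All HFD and all SW libraries lay below the LFD libraries, and HFD overlapped SW. Its log2 fold change in HFD against LFD was -0.94 ± 0.27 (SE, edgeR adjusted p = 0.0142), and -0.88 with an adjusted p of 0.0534 without HFD library 3. Cidea, known from brown fat, was at 12.8, 10.3 and 42.7 CPM in LFD, 9.6, 6.75 and 5.7 CPM in HFD, and 16, 17.2 and 7.97 CPM in SW. LFD library 3 held most of the Cidea level of its group, and in it the 7 markers of brown and beige fat summed to 119 CPM, against 42.1 and 39.6 CPM in LFD libraries 1 and 2. The same sum was 45.7, 57.3 and 54.4 CPM in HFD, where Cidea was lower, and 91.0, 68.0 and 38.7 CPM in SW. The part of such cells in the Cidea level was not tested. The log2 fold change of Cidea in HFD against LFD was -1.58 ± 0.51 (SE, edgeR adjusted p = 0.0267), and -0.67 without LFD library 3, where the adjusted p was 0.144. Its call was also lost without HFD library 2 or 3 (edgeR adjusted p = 0.0808 and 0.0989), by limma-voom (adjusted p = 0.0544) and with no filter on low counts (edgeR adjusted p = 0.125).

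**Figure D1:**
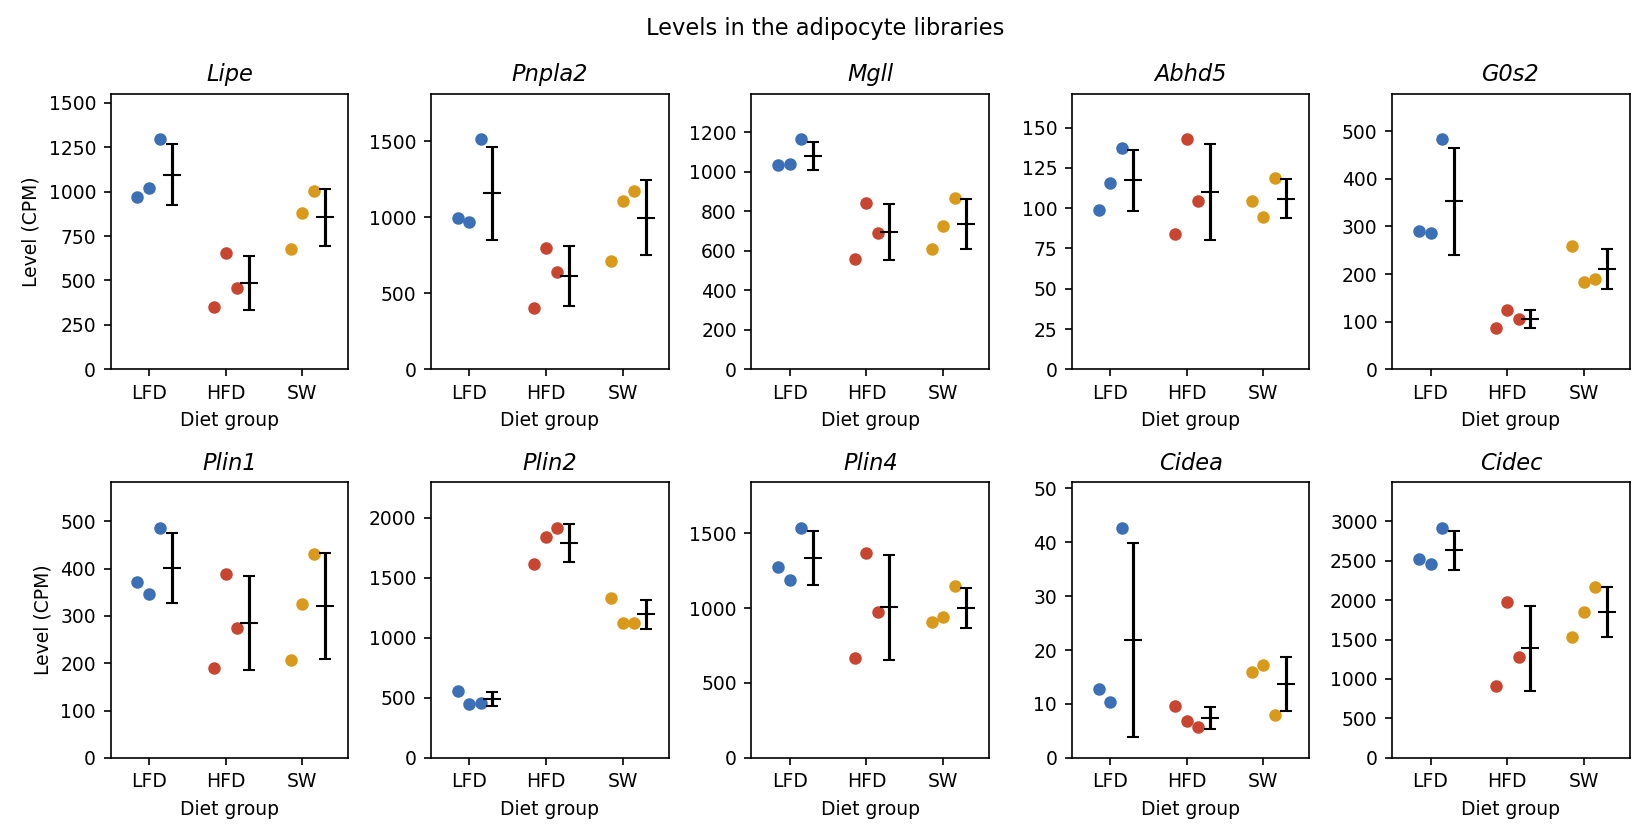
Level of each gene in CPM (vertical axis, from 0, a scale of its own for each gene) in the 9 adipocyte libraries by diet group. Points are libraries, the bar beside them is the mean and its whiskers the SD of 3 libraries; Plin2 is the gene whose HFD libraries, 1614 to 1914 CPM, all lie above its LFD libraries.

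The SW mice, which ate the HFD and then the LFD, were set against HFD to ask what changed after the switch of diet. Lipe and G0s2 rose and Plin2 fell. Of the 10 members 2 were higher and 1 was lower, where 15.6% of the genes tested were higher and 15.9% lower. The HFD libraries enter this comparison and the one with LFD, and the values are given side by side without setting one result against the other. The log2 fold change in SW against HFD was 0.83 ± 0.24 for Lipe (SE, edgeR adjusted p = 0.0291), 1.02 ± 0.23 for G0s2 (adjusted p = 0.0129) and -0.57 ± 0.17 for Plin2 (adjusted p = 0.0292). Pnpla2 (0.72 ± 0.29), Cidea (0.93 ± 0.51) and Cidec (0.43 ± 0.27) had positive values that did not pass the threshold. Mgll (0.09 ± 0.19), Abhd5 (-0.04 ± 0.19), Plin1 (0.19 ± 0.30) and Plin4 (0.01 ± 0.25) had values smaller than their SE. Pnpla2 passed with SW library 1 left out (edgeR adjusted p = 0.0463) and Cidec with HFD library 2 left out (adjusted p = 0.0424). Over all 14 alternatives the log2 fold change ran from 0.48 to 0.92 for Pnpla2 and from 0.20 to 0.73 for Cidec.

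With 1 library left out of SW against HFD, edgeR called 1 member without HFD library 1 or SW library 2 or 3 and 0 without HFD library 3, where DESeq2 on all libraries called 4. The genes called in all went from 4546 to 2299 without HFD library 1, 1522 without HFD library 3, 3858 without SW library 2 and 3475 without SW library 3. For Lipe the edgeR adjusted p was 0.0946, 0.103, 0.0616 and 0.0854 without HFD libraries 1 and 3 and SW libraries 2 and 3, with log2 fold changes of 0.64 to 0.79. For G0s2 it was 0.052 and 0.0558 without HFD libraries 1 and 3, with log2 fold changes of 0.90 and 1.01. For Plin2 it was 0.1, 0.0715 and 0.082 without HFD library 3 and SW libraries 2 and 3, with log2 fold changes of -0.54, -0.54 and -0.53.

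In SW against LFD, which asks what was still different after the switch, Plin2 was higher. Of the 10 members 1 was higher and 0 were lower, against 10.9% higher and 6.18% lower among the genes tested. The genes called in all went from 2468 to between 1678 and 2176 with 1 library left out. The lower ones among them went from 894 to between 509 and 681. At an unadjusted p under 0.05 edgeR had 2 members lower, G0s2 and Mgll, and DESeq2 called the same 2. The comparison shares its LFD and SW libraries with the comparisons above. Plin2 had a log2 fold change of 1.29 ± 0.17 (SE, n = 3 against 3, edgeR adjusted p = 0.000633), and each SW library was above each LFD library. The largest difference that missed the threshold was that of G0s2, -0.75 ± 0.23 (edgeR adjusted p = 0.0536), with an adjusted p of 0.0331 without SW library 1. G0s2 passed under 4 of 14 alternatives, over which its log2 fold change ran from -0.92 to -0.47. Mgll was at -0.56 ± 0.19 (adjusted p = 0.0733) and the other members lay between -0.65 and -0.15. All 9 members other than Plin2 had negative log2 fold changes, but without LFD library 3 Cidea was at 0.25 and Pnpla2 at 0.00753.

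Fractions were compared to ask in which cells the genes are found. In HFD mice 9 of the 10 members were higher in adipocytes and Plin2 was not called, against a background of 12.9% higher and 16.2% lower among 17441 genes tested. In SW mice 9 were higher and 1 was lower, where 32.8% of genes were higher and 35.6% lower. Plin4, Plin1 and Cidec stood furthest apart in HFD, and Plin2 was the exception in both.

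Plin4 was at 19 and 34.5 CPM in SVC HFD libraries 1 and 2 and at 68.2, 59.9 and 59.6 CPM in SVC SW libraries 1, 2 and 3, where the adipocyte libraries held 670 to 1535 CPM. Its log2 fold change in adipocytes against SVC was 5.23 ± 0.38 in HFD (SE, edgeR adjusted p = 6.78e-06) and 4.0 ± 0.30 in SW (adjusted p = 3.01e-07), and the HFD value was 4.86 without SVC HFD library 1 and 5.72 without SVC HFD library 2. Plin1 differed by 4.70 ± 0.51 in HFD and 3.62 ± 0.40 in SW, with 5.92 and 16.2 CPM in the SVC HFD libraries and HFD values of 4.14 without SVC HFD library 1 and 5.59 without SVC HFD library 2. Cidec differed by 3.98 ± 0.60 and 3.80 ± 0.50, with 26.7 CPM in SVC HFD library 1 and 150.5 CPM in SVC HFD library 2, and its HFD value was 3.21 without SVC HFD library 1 and 5.71 without SVC HFD library 2.

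The lipases and regulators were less unequal between the fractions. In HFD the log2 fold change was 3.17 ± 0.37 for Lipe, 2.19 ± 0.35 for Pnpla2, 2.14 ± 0.29 for Mgll, 1.78 ± 0.24 for Abhd5 and 2.32 ± 0.29 for G0s2 (SE, edgeR adjusted p of 9.37e-05 to 0.000829). Without SVC HFD library 1 these values were 2.82, 1.93, 1.78, 1.62 and 2.23, and without SVC HFD library 2 they were 3.63, 2.50, 2.63, 1.96 and 2.43. In SW the log2 fold change was 2.81 ± 0.30, 2.09 ± 0.30, 1.73 ± 0.25, 1.58 ± 0.21 and 2.12 ± 0.25 in the same order. All SVC libraries lay below all adipocyte libraries of the same diet for each of these genes. Cidea was near the floor in SVC, with 2 to 14 counts a library, and its log2 fold change of 3.33 ± 0.71 in HFD and 4.66 ± 0.65 in SW rests on those few counts, with HFD values of 2.77 without SVC HFD library 1 and 4.06 without SVC HFD library 2.

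Plin2 was at 337 CPM in the SVC LFD library, at 1414 and 2383 CPM in the SVC HFD libraries 1 and 2, and at 2308, 1749 and 2159 CPM in SVC SW. The SVC HFD range of Plin2 enclosed the adipocyte HFD range, and all SVC SW libraries were above all adipocyte SW libraries. The log2 fold change in adipocytes against SVC was -0.09 ± 0.24 in HFD (SE, edgeR adjusted p = 0.818) and -0.80 ± 0.22 in SW (adjusted p = 0.0056). In HFD the value was 0.34 without SVC HFD library 2 and -0.41 without SVC HFD library 1, past the threshold in neither case. The other members kept all 9 HFD calls without SVC HFD library 1 and without SVC HFD library 2.

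**Figure D2:**
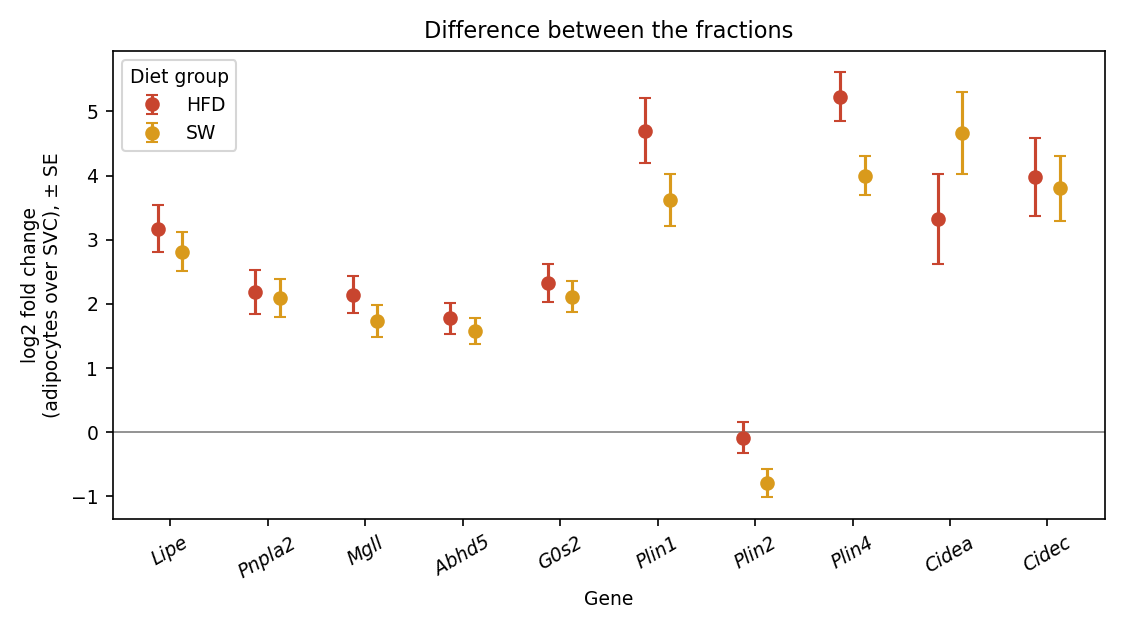
Log2 fold change in adipocytes against SVC (vertical axis) for each gene, in HFD and in SW mice; points are edgeR estimates and whiskers their SE. Plin2 is at or below 0 in both diets, at -0.09 and -0.80, and the other 9 genes are above 0.

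SVC of SW and HFD mice were compared for the same genes, with Cidea left out by the filter on low counts. G0s2 and Plin4 rose. Of 9 members tested 2 were higher and the others were not called, against 5.71% higher and 11.7% lower among 16319 genes tested. G0s2 was at 19.5 and 22.4 CPM in HFD and at 53, 38.7 and 54.5 CPM in SW, with a log2 fold change of 1.13 ± 0.25 (SE, n = 3 against 2, edgeR adjusted p = 0.0407). Plin4 had a log2 fold change of 1.15 ± 0.28 (SE, edgeR adjusted p = 0.0431), and the libraries of the groups did not overlap for either gene. All 9 members tested had positive values, with a median of 0.72 beside 0.03 for all genes, and this changed with single libraries. Plin2 was at -0.14 and Cidec at -0.12 without SVC HFD library 1, Plin2 at -0.0458 without SVC SW library 1, and Abhd5 at -0.0499 without SVC SW library 3. The 8 adipocyte markers had a median log2 fold change of 1.14 in this comparison, with 1 higher (Slc2a4) and 1 lower (Lpl), beside 2 of 7 lipid-associated macrophage, 1 of 11 macrophage, 1 of 6 fibroblast and 1 of 5 brown and beige markers lower and 1 of 5 endothelial markers higher. The part of these cells in the G0s2 and Plin4 results was not tested.

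With 2 HFD libraries the calls moved with each library, for the members and for all genes. By edgeR 0 members were called without SVC HFD library 1, and 6 were without SVC HFD library 2, among them Cidec at a log2 fold change of 2.15 (edgeR adjusted p = 0.0113) and Plin1 at 1.98 (adjusted p = 0.0183). G0s2 was at 1.18 without SVC HFD library 1 and 1.15 without SVC HFD library 2, and Plin4 at 0.91 and 1.55. Leaving out SVC SW library 1, 2 or 3 also left 0 members called by edgeR, with log2 fold changes of 1.04 to 1.19 for G0s2 (adjusted p of 0.0577 to 0.16) and 1.07 to 1.18 for Plin4 (adjusted p of 0.0836 to 0.16). Over all genes 2849 were called, and 503 without SVC HFD library 1, 6213 without SVC HFD library 2, 0 without SVC SW library 1, 0 without SVC SW library 2 and 593 without SVC SW library 3. The split of 932 higher and 1917 lower was not stable, with 275 and 228 without SVC HFD library 1 and 495 and 98 without SVC SW library 3.

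The change from HFD to SW was then compared between the fractions. For 1 member the change in adipocytes was lower than that in SVC, and for none by edgeR was it higher, where 11.4% of the 17441 genes tested were lower and 15.7% higher. That member was Plin4, with a log2 difference of -1.23 ± 0.41 (SE, edgeR adjusted p = 0.0389). It was not called without SVC HFD library 1 (-0.86, edgeR adjusted p = 0.163), and was -1.62 without SVC HFD library 2. Its call was also lost without HFD library 2 or 3 or SW library 1 or 2, or SVC SW library 1, 2 or 3, with values of -1.25 to -0.95 and adjusted p of 0.0534 to 0.0901. Over all genes 4727 were called, and 2936 without SVC HFD library 1 (1656 higher, 1280 lower), 6622 without SVC HFD library 2 and 3459 to 4929 with 1 other library left out. The members that passed without SVC HFD library 2 were 4, Plin1, Plin2, Plin4 and Cidec.

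Levels of different genes were compared per kilobase of the longest transcript in GENCODE M21, as counts per kilobase in each library, scaled to a total of 1000000 over all genes with a length. In adipocytes of LFD mice Cidec was highest, at 3102 ± 343 (SD, n = 3) on this scale. Pnpla2, at 893 ± 229, and G0s2, at 820 ± 252, overlapped each other, as did G0s2 and Lipe (597 ± 87.5), Lipe and Mgll (548 ± 46.1), Mgll and Plin2 (525 ± 102), and Plin2 and Plin4 (469 ± 70.5). Plin1 (289 ± 54.6) was below these, and Abhd5 (74.9 ± 10.1) and Cidea (39.6 ± 31.9) were lowest and overlapped each other. Within each of the 3 LFD libraries Pnpla2 was above G0s2, G0s2 above Lipe, Lipe above Mgll and Abhd5 above Cidea, while Mgll was above Plin2 and Plin2 above Plin4 in 2 of 3. This order depends on the length used, and with the median length of the coding transcripts Plin2, at 958, ranked above Mgll (598), G0s2 (559) and Lipe (519) in LFD. Over all members and groups 27 ranks moved with that length and 33 did not. In HFD the order opened with Plin2, at 2143 ± 45.4, whose libraries overlapped those of Cidec, at 1807 ± 593. In SW Cidec (2075 ± 649) was above Plin2 (1185 ± 93.5) without overlap, and with the median coding length Plin2 ranked above Cidec there. In SVC Plin2 was highest in all 3 diets, at 258 in LFD, 1490 ± 558 (SD, n = 2) in HFD and 1514 ± 178 (SD, n = 3) in SW on the same scale. This was 18.9 times the next gene in HFD and 12.1 times in SW. The lead was smaller in the SVC LFD library, where the next gene was Cidec, at 152.

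The share of Plin2 among the counts of the 10 members differed by diet and fraction. In adipocytes it was 4.59% to 6.81% in LFD, 22.6% to 33.1% in HFD and 13.7% to 21% in SW. In SVC it was 24% in the LFD library, 77.5% and 79.7% in HFD and 68.3% to 72.8% in SW. The ranges of the diets did not overlap in adipocytes.

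Markers of cell types were read beside these values. In adipocytes of HFD against LFD 11 of 11 macrophage markers were higher, with a median log2 fold change of 3.02. Their summed level was 1079, 1101 and 682 CPM in LFD libraries 1, 2 and 3, and 8748, 7785 and 8982 CPM in HFD libraries 1, 2 and 3. In SW libraries 1, 2 and 3 the sum was 8400, 5921 and 5660 CPM, and Lyz2 was the most abundant of these markers in all 9 libraries. The 7 markers of lipid-associated macrophages summed to 155 to 311 CPM in LFD, 3958 to 5230 CPM in HFD and 2988 to 3798 CPM in SW, with Cd9 as the most abundant of them in LFD, Gpnmb in HFD and Mmp12 or Gpnmb in SW. None of the macrophage markers was at 0 in any adipocyte library. The group means of Plin2 and of these sums stood in the same order of diets, and the part of macrophages in the Plin2 result was not tested.

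The 8 adipocyte markers moved as well. In adipocytes 6 of 8 were lower in HFD than in LFD and 0 were higher, with a median log2 fold change of -1.82, where the calls stand beside 26.5% higher and 25% lower of all genes. In SW against HFD 5 were higher and 0 lower by edgeR, beside 15.6% and 15.9% of all genes. They summed to 15588, 19690 and 25618 CPM in LFD, to 8336, 11416 and 9700 CPM in HFD and to 12392, 11924 and 12565 CPM in SW. Lpl was the most abundant of them in 8 of the 9 libraries and Cfd in LFD library 3, and none was at 0. The genes of this list did not move alike. Lep had means of 1300, 1536 and 1119 CPM in LFD, HFD and SW, and Lpl had means of 7932.5, 6735 and 6190 CPM. Cfd had means of 5838, 275 and 2099 CPM, and the remaining markers also had their lowest mean in HFD. The lower levels of the lipases, G0s2 and Cidec stood beside the lower sums in HFD, and the part of a changed share of adipocyte RNA was not tested.

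**Figure D3:**
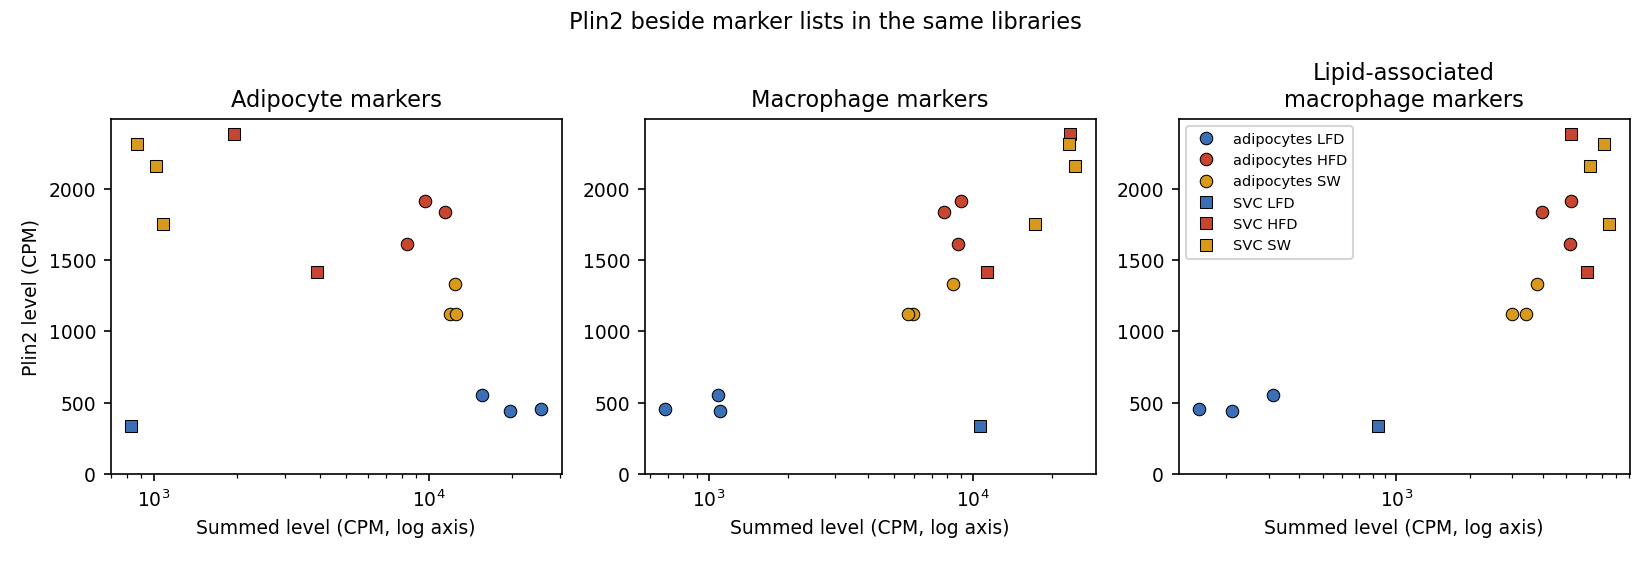
Plin2 level in CPM (vertical axis, from 0) against the summed level of 3 marker lists (horizontal log axes, CPM) in the 15 libraries. Circles are adipocytes and squares SVC, coloured by diet; the SVC LFD library holds 337 CPM of Plin2 beside 10661 CPM of macrophage markers.

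The SVC LFD library held 10661 CPM of macrophage markers, where SVC HFD library 1 held 11257 CPM and the other SVC libraries 17219 to 24404 CPM. It held 843 CPM of lipid-associated macrophage markers, where the others held 5198 to 7490 CPM. Its Plin2 level was 337 CPM, the lowest of all 15 libraries. The adipocyte markers summed to 826 CPM in the SVC LFD library, 3931 and 1957 CPM in SVC HFD and 865 to 1074 CPM in SVC SW. Lpl made up most of these sums outside LFD, at 3885 and 1851 CPM in SVC HFD, and fell in SW. Lep (means of 26.9 CPM in HFD and 17.8 CPM in SW) and Acvr1c (0.716 and 0.461 CPM) had lower means in SW and were not called. Acvr1c held only 3 to 10 counts in each of these libraries. The other 5 had higher means in SVC SW than in SVC HFD. The HFD and SW means were 25.1 and 62.4 CPM for Adipoq, 10.8 and 54.6 for Cfd and 5.77 and 18.4 for Retn. They were 2.51 and 8.3 CPM for Slc2a4 and 3.69 and 7.65 for Adig. The HFD means join unlike libraries, with 13.6 and 36.7 CPM for Adipoq, 4.13 and 17.5 for Cfd and 1.17 and 6.20 for Adig. Of the 8 genes only Slc2a4 (higher) and Lpl (lower) were called. The SVC LFD library also stood above the other SVC libraries in markers of other cells, at 1044 CPM against 26.6 to 183 CPM for mesothelial cells, 1065 against 219 to 411.5 for endothelial cells, 11767 against 4192 to 7686 for fibroblasts and progenitors, and 65290 against 2330 to 47584 for erythroid cells.

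RNA of adipocytes can also be present in the SVC fraction. The 8 adipocyte markers stood in SVC at a median of 3.22%, 3.33% and 2.98% of their adipocyte mean in LFD, HFD and SW, and the 10 members at a median of 14.2%, 15.5% and 18.7%. Plin4 stood at 7.52%, 2.67% and 6.26%, Cidec at 6.87%, 6.37% and 7.18%, and Pnpla2 at 20.5%, 22% and 23.5% of the adipocyte mean. Adipoq, the adiponectin gene, stood at 1.45%, 2.65% and 3.36%, but the 8 markers were not alike. They ran from 1.18% to 20.1% in LFD, 1.75% to 42.6% in HFD and 0.926% to 13.2% in SW. Slc2a4, at 20.1%, 8.62% and 11.8%, lay above Plin4 and Cidec in each diet. Lpl, at 4.04%, 42.6% and 13.2%, lay above them in HFD and SW. Cfd fell from 6.33% in LFD to 3.92% in HFD and was lower still in SW. The HFD values are means of 2 unlike libraries, with 1.90% and 3.44% for Plin4, 1.92% and 10.8% for Cidec, 17.7% and 26.2% for Pnpla2 and 1.43% and 3.87% for Adipoq. How much of the SVC level of each member came from adipocytes was not tested.

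Counts of markers are to be read beside the 26.5% higher and 25% lower of all genes in HFD against LFD. Of other cell types in the adipocyte libraries, endothelial markers were lower in 3 of 5 in HFD against LFD, and markers of mesothelial cells in 3 of 5. Fibroblast and progenitor markers were higher in 3 of 6, and erythroid markers lower in 5 of 5. The T cell and B cell lists had 0 called by edgeR of 5 and 0 of 4 tested. Of 7 markers of brown and beige fat 1 was higher and 1 was lower, and Ucp1 was at 0.368 to 46.6 CPM in LFD, highest in LFD library 3. Of the 8 markers of epididymis and testis 3 were tested, with 1 higher and 1 lower. In SW against HFD 4 of 11 macrophage markers were lower, 4 of 5 erythroid, 2 of 4 B cell and 1 of 5 T cell markers higher, and 1 of 6 of fibroblasts lower, beside 15.6% higher and 15.9% lower of all genes. Of the brown and beige list 1 was higher and 2 lower, and of the epididymis and testis list 1 was higher. The lists of lipid-associated macrophages, endothelial and mesothelial cells had 0 called by edgeR. In SW against LFD all 11 macrophage and all 7 lipid-associated macrophage markers were higher, beside 10.9% higher and 6.18% lower of all genes. There 4 of 5 endothelial, 3 of 5 erythroid, 2 of 5 mesothelial and 1 of 8 adipocyte markers were lower, 1 of 6 fibroblast and 1 of 7 brown and beige markers were higher, and the T and B cell lists had 0 called by edgeR. The part of these cells in the results was not tested.

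The wider pathway was read from lists of genes in adipocytes of HFD against LFD. Of 15 tested genes for other lipid droplet proteins 5 were higher and 5 lower, near the 26.5% higher and 25% lower of all genes, with a median log2 fold change of 0.29 beside -0.03. Hilpda, an inhibitor of Pnpla2 that responds to low oxygen, rose by a log2 fold change of 1.17 ± 0.14 (SE, edgeR adjusted p = 0.000131), and Pcyt1a, which makes phosphatidylcholine for growing droplets, by 1.10 ± 0.12. The caveolar coat gene Cavin1, listed under its older symbol Ptrf, had a log2 fold change of -1.17 ± 0.19. Plin3, a perilipin found in most tissues, rose by 0.53 ± 0.10 (edgeR adjusted p = 0.00221), and Plin5, known from oxidative tissues, was at 0.32 ± 0.27 (adjusted p = 0.343).

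Of 7 other hydrolases 1 was higher and 4 were lower, beside 26.5% and 25% of all genes. The lysosomal acid lipase gene Lipa was at 38.1 to 73.8 CPM in LFD, 689 to 904 CPM in HFD and 334 to 404.7 CPM in SW, without overlap. Its log2 fold change in HFD against LFD was 3.96 ± 0.27 (SE, edgeR adjusted p = 7.37e-06), and in SW against LFD 2.78 ± 0.26 (adjusted p = 8.59e-05). Ces1d had a log2 fold change of -1.96 ± 0.36 in HFD against LFD and Pnpla3 of -1.80 ± 0.29.

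Of 18 genes of hormonal control 3 were higher and 6 lower, near the 26.5% and 25% of all genes. Adrb3, the beta-3 adrenergic receptor of fat cells, was at 289 to 566 CPM in LFD, 28 to 65.3 CPM in HFD and 142 to 229 CPM in SW. The groups did not overlap, and the log2 fold change was -3.28 ± 0.38 in HFD against LFD (SE, edgeR adjusted p = 9.31e-05) and 2.25 ± 0.36 in SW against HFD (adjusted p = 0.00487). Adra2a, a receptor that restrains lipolysis, fell by 2.01 on the log2 scale in HFD, and Adcy3, an adenylyl cyclase, rose by 2.38 ± 0.24. Pde3b, the phosphodiesterase through which insulin lowers cyclic AMP, was at -0.58 ± 0.24 (edgeR adjusted p = 0.0624).

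Of 6 genes for handling of fatty acids and glycerol 2 were higher and 3 lower, and of 7 transcription factors known to act on the pathway 1 was higher and 5 lower, beside 26.5% and 25% of all genes. Pck1, which feeds glycerol synthesis, fell by 1.98 on the log2 scale, and Fabp4, a carrier of fatty acids, by 1.36, while glycerol kinase, listed as Gyk, rose by 1.47 ± 0.15. Pparg, the main factor of adipocyte genes, was at 174 to 221 CPM in LFD, 93.6 to 121 CPM in HFD and 101 to 137 CPM in SW. Its log2 fold change was -0.93 ± 0.16 in HFD against LFD (SE, edgeR adjusted p = 0.000928) and -0.67 ± 0.16 in SW against LFD (adjusted p = 0.0147). Foxo1 had -1.04 ± 0.11 and Irf4 0.96 ± 0.24 in HFD against LFD.

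In SW against HFD the same lists had 3 higher and 3 lower of 15 for droplet proteins, 2 and 1 of 7 for hydrolases, 2 and 2 of 18 for hormonal control, 2 and 1 of 6 for fatty acids and glycerol, and 1 and 0 of 7 for transcription factors. Of all genes 15.6% were higher and 15.9% lower, and most of these counts lay near those shares. Lipa had a log2 fold change of -1.18 ± 0.24 in SW against HFD, Adcy3 of -1.18 ± 0.22, Gyk of -1.06 ± 0.14 and Fabp4 of 0.94 ± 0.24. Hilpda was not called in SW against HFD (-0.32 ± 0.14, edgeR adjusted p = 0.0991) and was higher in SW than in LFD (0.85 ± 0.14, adjusted p = 0.00266).

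Over the 9 adipocyte libraries, the genes most like each member in log2 level were found among 9828 genes, by Pearson r, as a description with no test. Plin2 was most like Ctsl (r = 0.997), Abhd12 (0.995) and Sash3 (0.995). Lipe was most like Fggy (0.993), Dgat1 (0.992) and Ptp4a1 (0.989), Pnpla2 like Trim39 (0.989), Cbr4 (0.982) and Ccdc80 (0.978), and Mgll like Srebf1 (0.991), Trf (0.986) and A530016L24Rik (0.983). G0s2 followed Ttc32 (0.992), Immp2l (0.986) and Ptges (0.98), and Abhd5 followed Cops3 (0.928), Mrpl50 (0.917) and Gins4 (0.911). Among the coat genes Plin1 was most like Fam73b (0.988), Abcd2 (0.977) and Gnpat (0.976), and Plin4 like Lrrc39 (0.991), Tusc5 (0.981) and Tshr (0.974). Cidec was most like Fitm2 (0.991), Slc1a5 (0.99) and Snhg11 (0.989), and Cidea like Rundc1 (0.91), Zfp874b (0.909) and Zbtb6 (0.904). The libraries differ by diet, so all genes that follow diet are alike in this measure.

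Promoter windows of 9 members were in the RefSeq promoter table of build GRCm38.p6, in 12 windows. The 250 bases before the start were searched on both strands for 3 motifs. The half-site of nuclear receptors AGGTCA was in 14% of the 32851 windows searched and in 2 of the members' windows, those of Plin2 and Abhd5. The C/EBP motif TTGCNNAA was in 9.56% of all windows and in 2, of Cidec and Plin1, and the forkhead motif TGTTTAC in 3.17% and in 2, of Mgll and Lipe. Cidec, Lipe and Mgll each also had a window with 0 matches. For Cidec and Lipe the window with the match is the less certain, as the first bases after its start are in 0 transcripts of GENCODE M21. A match describes letters only, and its absence says nothing about a factor. Shown are the window of Plin2, the member that rose in HFD, that of G0s2, which had the largest fall, and a window of Mgll, with capitals for any motif found. They lie at chr4:86670060-86670309 (minus strand), chr1:193273189-193273438 (minus strand) and chr6:88724162-88724411 (plus strand).
Plin2: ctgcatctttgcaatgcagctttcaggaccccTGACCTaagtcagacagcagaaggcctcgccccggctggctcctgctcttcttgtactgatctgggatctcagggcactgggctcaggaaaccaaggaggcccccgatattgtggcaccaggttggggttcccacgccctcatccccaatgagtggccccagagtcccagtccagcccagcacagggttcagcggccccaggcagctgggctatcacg
G0s2: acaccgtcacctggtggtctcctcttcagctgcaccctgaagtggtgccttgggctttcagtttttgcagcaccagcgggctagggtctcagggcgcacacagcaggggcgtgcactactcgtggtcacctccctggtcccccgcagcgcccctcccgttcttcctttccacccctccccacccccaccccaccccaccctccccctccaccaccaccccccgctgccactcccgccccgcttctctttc
Mgll: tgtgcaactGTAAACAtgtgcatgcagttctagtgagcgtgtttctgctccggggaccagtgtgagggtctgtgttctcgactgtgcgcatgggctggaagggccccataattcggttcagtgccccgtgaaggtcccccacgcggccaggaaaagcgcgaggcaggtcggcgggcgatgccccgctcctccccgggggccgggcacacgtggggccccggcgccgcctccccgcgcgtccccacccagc

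Positions in GENCODE M21 on GRCm38 are, as a guide to overlapping genes, chr7:25379527-25398710 for Lipe, chr1:193272161-193273217 for G0s2 and chr4:86648386-86670060 for Plin2. Genes of the other strand overlap Lipe, Mgll, Abhd5, G0s2, Plin4 and Cidea there, and genes of the same strand also overlap Mgll. The notes of the submitters name the build mm9, and whether counting used strand is not given in the sources used here, so reads of these pairs may not be told apart.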

How the data were processed

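The deposited values are estimated counts, made by the authors with RSEM after mapping with Bowtie2, as whole numbers without normalization. Their notes also name limma and the build mm9, and no versions. Here 15 columns whose names match the labels were used, and 3 columns of values that match no group were left out. The members and lists were chosen with earlier results of these data known. Counts were filtered with filterByExpr (minimum count 10), scaled with TMM and tested in edgeR 4.0.16 (R 4.3.3), where the fraction comparisons used 1 fit of all 15 libraries. DESeq2 1.42.0, limma 3.58.1, other scalings and filters, and leaving out each library were alternatives. Older symbols stood for Ldaf1, Spart, Gk, Hcar1, Hcar2 and Cavin1, and, added after the files were seen, for Adgre1 (Emr1) and Ldah. Of each list the 3 called genes with the largest fold changes were named, besides Plin3, Plin5, Hilpda, Adrb3, Pde3b, Lipa and Pparg. The labels do not say that libraries came from separate mice, so p-values measure only the spread between libraries. The smallest exact permutation p for 3 against 3 would be 0.1. Each library's count of 0 allows up to 3 counts, which is counting error only.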

Additional observations from a re-analysis of the deposited data

Results flagged for a closer look

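The change from HFD to SW in Plin4 differed between adipocytes and SVC, with a log2 difference of -1.23 ± 0.41 (SE, edgeR adjusted p = 0.0389). In adipocytes the log2 fold change in SW against HFD was 0.01 ± 0.25, and in SVC it was 1.15 ± 0.28. The call was lost under 9 of 19 alternatives, with only the groups compared (edgeR adjusted p = 0.0577) and with 8 of the libraries left out in turn, and the adjusted p ranged from 0.00583 to 0.163 over all 19.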

How the results depend on the processing

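Members called in SVC SW against HFD numbered 2, and 5 by DESeq2, 1 by limma-voom, 1 with upper-quartile factors, 3 with no filter on low counts and 0 to 6 with 1 library left out. For the difference of that change between fractions they numbered 1, and 2 by DESeq2, 0 with only the groups compared and 0 to 4 with 1 library left out. In adipocytes they numbered 7 in HFD against LFD (3 to 7 with 1 library left out), 3 in SW against HFD (0 to 4) and 1 in SW against LFD (DESeq2 3, upper-quartile factors 2, no filter on low counts 2, and 1 to 2). Between fractions they numbered 9 in HFD and 10 in SW under every alternative but that of at least 10 counts in every library, which leaves Cidea untested and gave 8 and 9. The cause of these differences was not tested.

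Values that changed sign were small or uncalled. With at least 10 counts in every library, SVC SW against HFD gave -0.0509 for Abhd5 and -0.0544 for Plin2. In adipocytes SW against HFD, limma-voom gave 0.00583 for Abhd5, and Plin4 was at -0.00619 by DESeq2 and -0.0320 with no filter on low counts. With 1 library left out, log2 fold changes in adipocytes SW against HFD ran from -0.21 to 0.15 for Abhd5, -0.0471 to 0.22 for Mgll, -0.0786 to 0.45 for Plin1 and -0.22 to 0.26 for Plin4. In HFD against LFD Abhd5 ran from -0.31 to 0.0461, and in SW against LFD Cidea ran from -1.02 to 0.25 and Pnpla2 from -0.34 to 0.00753. In SVC SW against HFD Abhd5 ran from -0.0499 to 0.16, Cidec from -0.12 to 2.15 and Plin2 from -0.14 to 0.39. For the difference of that change between fractions Abhd5 ran from -0.37 to 0.0256, Cidec from -1.81 to 0.59 and Pnpla2 from -0.33 to 0.16. Plin2 in adipocytes against SVC in HFD ran from -0.41 to 0.34.

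All genes called in SVC SW against HFD numbered 2849 by edgeR, 5226 by DESeq2 and 1719 by limma-voom, and leaving out 1 library moved them further, to 0 to 6213, and in adipocytes against SVC in HFD 5078, and 2030 with only the groups compared and 2528 to 7044 with 1 library left out. The scalings tried moved the median of all genes by at most 0.10 (log2). No paired analysis was possible because the columns carry library numbers that are in no label. Library sizes without mitochondrial and hemoglobin genes were an alternative chosen after seeing the data. Where 1 library of a group was left, it was assumed to vary like the other groups.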

Other observations

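Lipe stood at 175 CPM in the SVC LFD library, which has no replicate, above the SVC HFD libraries, at 39.3 and 68.8 CPM, and the SVC SW libraries, at 98.4 to 159 CPM. Plin1 had the same order, with 42.5 CPM in SVC LFD, 5.92 and 16.2 CPM in SVC HFD and 21.9 to 33.8 CPM in SVC SW. Plin4 stood at 100 CPM in the SVC LFD library, also above the other SVC libraries. Cfd, at 369 CPM in SVC LFD against means of 10.8 and 54.6 CPM in SVC HFD and SW, Retn (43.3 against 5.77 and 18.4) and Slc2a4 (22.5 against 2.51 and 8.30) were highest there as well. Acvr1c was also highest there (1.73 against 0.716 and 0.461), but it was near the floor in SVC and rests on few counts. Adig (9.10 against 3.69 and 7.65) was above both means but below the highest SVC SW library, at 9.32 CPM. Adipoq (43.6 against 25.1 and 62.4) was not highest there, and Lep (15.4 against 26.9 and 17.8) and Lpl (320 against 2868 and 816) were lowest there. Mesothelial, endothelial, fibroblast and erythroid markers also had their highest SVC sums in that library. The part of adipocyte RNA or of other cells in these levels was not tested.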
